A study of Oryza sativa with 24 samples.

Results

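The DREB1 family of rice, also called CBF, was described on 24 Affymetrix rice genome arrays. Members were the genes whose symbol or synonym in the rice gene table is DREB1 followed by a letter, which gave 9 genes of 39387, and a member was measured where a probe set of the array is assigned to it alone. That held for 5 genes, DREB1A (LOC4347620), DREB1B (LOC4347618), DREB1C (LOC4339974), DREB1E (LOC4336721) and DREB1G (LOC4330306), through 7 of the 57258 probe sets that are not controls. DREB1C has 3 of the 7 and the others have 1 each, while DREB1F, DREB1H, DREB1I and DREB1J have none. In the order of genes in that table DREB1B, DREB1H and DREB1A follow each other, as do DREB1J and DREB1I.

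The seedlings were of Dular, a traditional rice tolerant of low phosphate, and of PB1 (Pusa Basmati-1), a modern rice sensitive to it. They were grown in nutrient solution for 15 days at 1 µM (−Pi) or 320 µM (+Pi) inorganic phosphate (Pi), in warm days and nights with no cold treatment given. Roots and shoots were taken separately, which makes 8 groups of 3 arrays: Dular root −Pi, Dular root +Pi, PB1 root −Pi, PB1 root +Pi, and the same 4 for shoots. Each array carried RNA pooled from 3 seedlings, each genotype is 1 line, and the labels give no hour of harvest.

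DREB1 proteins are transcription factors with an AP2 domain that bind the dehydration-responsive element in promoters. In rice DREB1A and DREB1B are known as genes that cold induces rapidly and transiently, and overexpressed DREB1 genes raise tolerance of cold, drought and salt. They act upstream of protective genes such as dehydrins, and in Arabidopsis their relatives are themselves controlled by MYB and bHLH factors, by calcium signals and by the circadian clock.

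The values are log2 signals that were centred on each probe set's median over the arrays, so they compare arrays for 1 gene and give no level of a gene against another gene. For a gene whose 12 Dular arrays all lie below its 12 PB1 arrays, 0 falls halfway between the highest Dular and the lowest PB1 array. The family was chosen by its measured difference between the genotypes, so the Dular and PB1 values of its members are given as a description without a test. Pi responses and differences between tissues were tested with limma, with p-values adjusted by Benjamini-Hochberg over all 57258 probe sets. The threshold for a call was a change of at least 2-fold with an adjusted p no higher than 0.05, and errors of differences are the standard errors (SE) of that fit.

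Array medians lay between -0.0338 and 0.0298 on the log2 scale. The tissue labels were checked with marker genes, since 1 label field of each sample names whole seedlings. Of 14 probe sets of photosynthesis genes, 9 to 11 were called lower in roots than in shoots in the 4 comparisons, and of 10 probe sets of root transporter and chelator genes 6 to 9 were called higher. Of these 10, 1 was called lower in roots of Dular at each Pi level and 0 in PB1. The lowest difference in Dular was -5.85 at −Pi and -5.89 at +Pi. The spike-in control BioB was at -5.05 to -4.67 on the PB1 root arrays, against -0.23 to 0.14 on the Dular root arrays. On all shoot arrays BioB lay between -0.18 and 0.81. In roots BioB was low on every PB1 array and on no Dular array. Genotype and whatever lowered BioB therefore cannot be told apart there, and its part in the root comparisons was not tested. Of the 14 photosynthesis probe sets 7 were called lower in Dular than in PB1 roots at −Pi, with a median difference of -1.71 and a range of -5.30 to 0.04, and 3 higher and 4 lower at +Pi with a median of 0.22. Between Pi levels 10 of the 14 were called lower at −Pi in Dular roots, where 3.44% of all probe sets were. Their median difference there was -1.77, with a range of -4.86 to -0.01. In PB1 roots 0 of the 14 were called lower and 1 higher. The part of these genes in the DREB1 and list results was not tested.

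DREB1A, DREB1B, DREB1E and DREB1G were all lower in Dular than in PB1, in both tissues and at both Pi levels, and DREB1C was nearly flat. All 12 Dular arrays lay below all 12 PB1 arrays for each of the 4 genes. The gap between the highest Dular and the lowest PB1 array was 3.22 for DREB1B, 2.19 for DREB1A, 1.06 for DREB1G and 0.76 for DREB1E on the log2 scale. Such a complete separation with Dular below was seen for 1012 of the 57258 probe sets, or 1.767%. In whole roots and shoots, fewer cells with a transcript and less of it per cell cannot be told apart.

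DREB1B had the widest gap and the largest difference averaged over the 4 comparisons, -8.88, with DREB1G next at -8.40. In roots it stood at -1.61, -8.28 and -7.74 in Dular at −Pi and at -8.35, -8.27 and -7.93 in Dular at +Pi, against 2.62, 2.96 and 2.64 in PB1 at −Pi and 2.43, 2.68 and 2.46 in PB1 at +Pi. In shoots it stood at -5.77, -5.54 and -3.0 in Dular at −Pi and at -7.08, -6.24 and -8.11 in Dular at +Pi, against 2.71, 2.26 and 1.71 in PB1 at −Pi and 1.93, 1.61 and 2.56 in PB1 at +Pi. The PB1 arrays were close together in every group, and in Dular replicate 1 of the −Pi roots and replicate 3 of the −Pi shoots stood above their group. The difference Dular minus PB1 was -8.62 in roots at −Pi and -10.71 in roots at +Pi (SE 1.18 each). In shoots it was -7.00 at −Pi and -9.18 at +Pi with the same SE. Averaged over the 4 comparisons, DREB1B had the rank 20 from the lowest of all 57258 probe sets.

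DREB1A, its neighbour with DREB1H between them, had the same pattern with smaller gaps. In roots its values were -1.10, -5.39 and -7.79 in Dular at −Pi and -7.63, -7.73 and -6.90 in Dular at +Pi, against 1.86, 2.1 and 1.98 in PB1 at −Pi and 1.67, 1.98 and 1.56 in PB1 at +Pi. In shoots they were -3.65, -3.80 and -2.27 in Dular at −Pi and -3.29, -5.19 and -7.11 in Dular at +Pi, against 2.28, 1.96 and 1.49 in PB1 at −Pi and 1.40, 1.1 and 2.18 in PB1 at +Pi. The Dular arrays of DREB1A spanned 6.70 in −Pi roots and 3.82 in +Pi shoots, while its PB1 groups spanned at most 1.08. Dular minus PB1 was -6.74 in roots at −Pi, -9.16 in roots at +Pi, -5.15 in shoots at −Pi and -6.75 in shoots at +Pi (SE 1.15).

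DREB1G showed the widest span of the family, 11.76 over the 24 arrays. In roots it lay at -0.69, -9.02 and -8.56 in Dular at −Pi and at -9.01, -9.0 and -9.01 in Dular at +Pi, against 2.74, 2.43 and 2.40 in PB1 at −Pi and 2.03, 2.03 and 1.63 in PB1 at +Pi. In shoots it lay at -7.03, -3.14 and -0.53 in Dular at −Pi and at -8.19, -8.14 and -8.58 in Dular at +Pi, against 0.90, 1.85 and 1.42 in PB1 at −Pi and 0.55, 0.53 and 1.41 in PB1 at +Pi. The 3 Dular root arrays at +Pi agreed within 0.01, and whether that is the lowest signal the method returns cannot be read from centred values. Dular minus PB1 was -8.61 in roots at −Pi, -10.91 in roots at +Pi, -4.96 in shoots at −Pi and -9.13 in shoots at +Pi (SE 1.62).

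DREB1E differed least of the 4. In roots it was at -0.38, -4.45 and -4.69 in Dular at −Pi and at -4.16, -3.06 and -3.19 in Dular at +Pi, against 2.62, 2.59 and 2.65 in PB1 at −Pi and 1.92, 2.38 and 2.00 in PB1 at +Pi. In shoots it was at -3.98, -3.23 and -0.73 in Dular at −Pi and at -4.15, -3.48 and -3.24 in Dular at +Pi, against 2.25, 1.64 and 0.87 in PB1 at −Pi and 0.90, 0.38 and 1.72 in PB1 at +Pi. Again replicate 1 of the Dular −Pi roots and replicate 3 of the Dular −Pi shoots were the highest Dular arrays. Dular minus PB1 was -5.79 in roots at −Pi, -5.57 in roots at +Pi, -4.24 in shoots at −Pi and -4.62 in shoots at +Pi (SE 0.91), the last of which is a 24.6-fold lower signal in Dular.

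**Figure D1:**
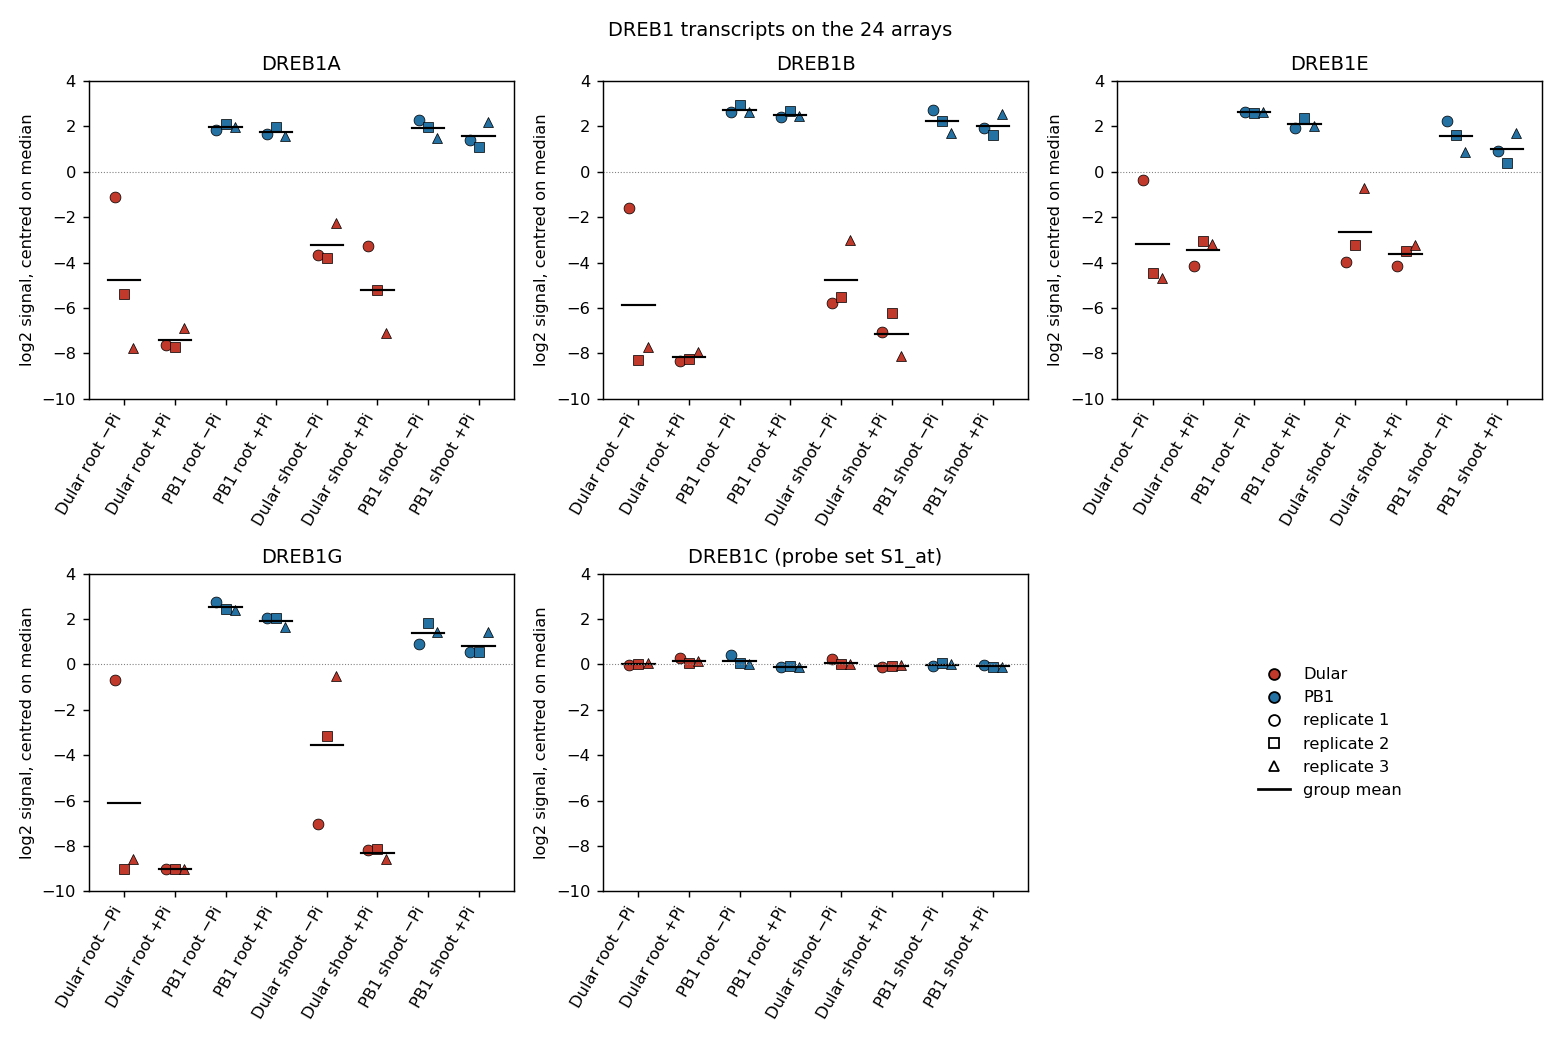
Centred log2 signal of 5 DREB1 genes on each of the 24 arrays (y axis) by group (x axis), with Dular in red, PB1 in blue, a marker shape for each replicate and a bar for the mean of the 3 arrays. The Dular arrays of DREB1A, DREB1B, DREB1E and DREB1G lie below all PB1 arrays, and DREB1C, shown for 1 of its 3 probe sets, stays within 0.56 log2 over all arrays.

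DREB1C, known in rice for effects on photosynthesis and nitrogen use, lacked this pattern on all of its 3 probe sets. They spanned 0.34, 0.56 and 1.08 over the 24 arrays, and 61.2%, 56.0% and 45.2% of all probe sets spanned at least as much. The largest difference between the genotypes on any of the 3 was -0.44 ± 0.13 (SE), in roots at −Pi. A span that small does not tell a steady transcript from a probe set that measures little, since no level is known.

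The 8 groups had a nearly common order in the 4 genes. The PB1 groups came first, with roots at −Pi highest for each gene, at 2.74 ± 0.19 for DREB1B, 2.62 ± 0.03 for DREB1E, 2.52 ± 0.19 for DREB1G and 1.98 ± 0.12 for DREB1A (mean ± SD, n = 3). Among the Dular groups the shoots at −Pi were highest for each gene, at -2.65 ± 1.70 for DREB1E, -3.24 ± 0.84 for DREB1A, -3.57 ± 3.27 for DREB1G and -4.77 ± 1.54 for DREB1B. The lowest group was the Dular root at +Pi for DREB1A, DREB1B and DREB1G, and the Dular shoot at +Pi for DREB1E. Of the 7 steps between neighbours in the order, 6 had overlapping arrays for DREB1A and DREB1B, 5 for DREB1E and 4 for DREB1G. The only step that was free of overlap in all 4 genes was the step between the lowest PB1 and the highest Dular group.

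In the limma fit 4 of the 7 DREB1 probe sets were lower in Dular past the calling threshold in each comparison, and none was higher. Of all probe sets, 7.60% were called lower in Dular roots at −Pi, 7.69% in roots at +Pi, 5.49% in shoots at −Pi and 5.35% in shoots at +Pi, and 14.3%, 13.2%, 11.4% and 10.3% were called either way in the same order. These comparisons chose the family, and nothing is read from the counts.

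The 4 genes had higher mean signals at −Pi in Dular, and no response was called. Means were higher at −Pi than at +Pi in both genotypes and tissues for each of the 4, but some turned under other settings: quantile normalization gave -0.01 for DREB1A and -0.09 for DREB1B in PB1 roots, array weights gave -0.93 for DREB1E in Dular roots, and leaving out an array gave values down to -1.10 for DREB1E in Dular roots and -0.05 for DREB1B in PB1 shoots. By limma 0 of the 7 probe sets were called in any of the 4 Pi comparisons. Of all probe sets 7.56% were called in roots and 2.34% in shoots of Dular, and 4.81% and 1.17% in those of PB1. At an unadjusted p under 0.05 the 7 probe sets gave 1 in roots (DREB1A) and 1 in shoots (DREB1G) of Dular, and 2 in roots (both DREB1C) and 0 in shoots of PB1. At that threshold 26.8% of all probe sets passed in roots and 32.4% in shoots of Dular, and 31.5% and 16.2% in those of PB1.

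The largest response was that of DREB1G in Dular shoots, 4.74 ± 1.62 (log2 −Pi minus +Pi ± SE), or 26.7-fold, with a limma adjusted p of 0.0925. Its 3 −Pi arrays, at -7.03, -3.14 and -0.53, all lay above the 3 +Pi arrays, and the −Pi arrays among themselves were 6.49 apart. Only 3 probe sets of 57258 had a range at least that wide in this group. In Dular shoots DREB1B differed by 2.37 ± 1.18 (adjusted p = 0.166 by limma), DREB1A by 1.95 ± 1.15 (0.22) and DREB1E by 0.97 ± 0.91 (0.457). The −Pi and +Pi arrays of DREB1B did not overlap, and those of DREB1A and DREB1E did.

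In Dular roots the −Pi minus +Pi difference was 2.92 ± 1.62 for DREB1G, 2.66 ± 1.15 for DREB1A, 2.31 ± 1.18 for DREB1B and 0.30 ± 0.91 for DREB1E. The limma adjusted p was 0.283, 0.138, 0.231 and 0.901 in that order of genes. For DREB1B and DREB1G the difference rested on replicate 1, as the other 2 −Pi arrays lay within 1 log2 unit of the +Pi arrays. For DREB1A replicate 2, at -5.39, also lay above the highest +Pi array, at -6.90. In PB1 the 4 genes differed by 0.21 to 0.63 in roots and by 0.19 to 0.59 in shoots, with adjusted p of 0.713 or more throughout. The error of these PB1 comparisons includes the wide spread of the Dular arrays. For DREB1E the PB1 root arrays lay at 2.59 to 2.65 at −Pi and 1.92 to 2.38 at +Pi. For DREB1G they lay at 2.40 to 2.74 and 1.63 to 2.03. The −Pi and +Pi arrays of DREB1A and DREB1B overlapped in PB1 roots, as did those of all 4 genes in PB1 shoots. In PB1 roots 2 DREB1C probe sets passed the adjusted p but not the 2-fold threshold, with differences of 0.52 ± 0.13 (adjusted p = 0.0122) and 0.28 ± 0.09 (adjusted p = 0.0383, limma).

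A single array decided much of this. Replicate 1 of the Dular root −Pi group lay above the mean of the other 2 replicates by 8.10 for DREB1G, 6.40 for DREB1B, 5.49 for DREB1A and 4.19 for DREB1E. The range of the group was 8.33 for DREB1G and 6.70 for DREB1A, and 6 and 8 of the 57258 probe sets ranged at least as far there. Over all probe sets, 162 lay more than 2 log2 units above both other replicates on that array, against 5 to 580 on the other 23 arrays. Replicate 3 of the Dular shoot −Pi group was likewise above the mean of the other 2, by 4.55 for DREB1G, 2.88 for DREB1E and 2.65 for DREB1B.

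Without replicate 1 of the Dular root −Pi group the SE fell in the comparisons that keep 3 arrays a side. It was 0.57 for DREB1B and 0.98 for DREB1G, against 1.18 and 1.62 on all arrays. DREB1G in Dular shoots was then called higher at −Pi, with the same difference of 4.74 and a limma adjusted p of 0.00647. DREB1B was called as well, with 2.37 and an adjusted p of 0.0174, while 2.27% of all probe sets were called in that comparison. The array left out is a root array, so its loss changed the error of the shoot comparison and not the difference. It was left out for its high values of these genes, while the high replicate 3 of the Dular shoot −Pi group was kept. These shoot calls are therefore a description. In Dular roots the −Pi minus +Pi differences were then 0.22 ± 1.1 for DREB1G, 0.17 ± 0.64 for DREB1B, 0.83 ± 0.83 for DREB1A and -1.10 ± 0.69 for DREB1E, with adjusted p of 0.436 or more. DREB1E thus turned its direction in Dular roots.

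Between tissues, 0 of the 7 probe sets were called in any of the 4 root minus shoot comparisons by limma on all arrays. Of all probe sets 16.8% were called in Dular at −Pi, 16.2% in Dular at +Pi, 17.3% in PB1 at −Pi and 16.1% in PB1 at +Pi. Those called higher in roots were 8.45%, 7.35%, 9.12% and 8.26% in that order, and those called lower 8.31%, 8.84%, 8.20% and 7.82%. At an unadjusted p under 0.05 there were 0, 1, 2 and 1 of the 7 in these 4 comparisons, each of them a DREB1C probe set, where 33.8%, 63.4%, 35.2% and 35.1% of all probe sets passed. In Dular at −Pi the difference of roots from shoots was -2.52 ± 1.62 for DREB1G (adjusted p = 0.35, limma), -1.52 ± 1.15 for DREB1A, -1.10 ± 1.18 for DREB1B and -0.52 ± 0.91 for DREB1E, and the last 2 turned to 0.38 and 0.28 under quantile normalization.

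Without replicate 1 of the Dular root −Pi group all 4 genes were called lower in roots than in shoots of Dular at −Pi. That array was left out for its high values of these genes, and the high replicate 3 of the Dular shoot −Pi group was kept. The calls are therefore a description. DREB1G then differed by -5.22 ± 1.1 (limma adjusted p = 0.00121), or 37.4-fold. DREB1A differed by -3.35 ± 0.83 (0.00484), DREB1B by -3.24 ± 0.64 (7.34e-04) and DREB1E by -1.92 ± 0.69 (0.0486), and 16.4% of all probe sets were called. At +Pi DREB1A was called too, at -2.22 ± 0.74 (adjusted p = 0.0214), a difference with an adjusted p of 0.105 on all arrays.

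In PB1 the means of the 4 genes were higher in roots than in shoots, by 0.07 to 1.13 at −Pi and by 0.18 to 1.1 at +Pi over the 4 genes, though at −Pi quantile normalization gave -0.34 for DREB1A and -0.06 for DREB1B and array weights gave -0.19 for DREB1A. Leaving out an array gave values for DREB1A down to -0.14 at −Pi and -0.05 at +Pi. In Dular at +Pi the difference was below 0 for DREB1A, DREB1B and DREB1G and 0.15 for DREB1E. Quantile normalization turned DREB1B and DREB1G above 0 there, so their direction depends on the scaling. DREB1E and DREB1G had the largest of the PB1 differences, 1.03 and 1.13 at −Pi and 1.1 and 1.07 at +Pi, and none was called. The wide spread of the Dular arrays enters the error of these PB1 comparisons. In a fit to the PB1 arrays alone the SE of DREB1G was 0.29, and roots were called higher at −Pi (adjusted p = 0.0175) and at +Pi (adjusted p = 0.0242, limma).

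The difference of the Pi response between roots and shoots was tested as well, and 0 of the 7 probe sets were called in either genotype by limma. At an unadjusted p under 0.05 there was 1 DREB1C probe set in each, where 33.8% of all probe sets passed in Dular and 14.7% in PB1. The shares called after adjustment were 4.77% in Dular and 2.42% in PB1. The largest value was that of DREB1G in Dular, -1.82 ± 2.3 (adjusted p = 0.597). Between the genotypes, the Pi response of Dular minus that of PB1 was 4.17 ± 2.3 for DREB1G and 2.18 ± 1.67 for DREB1B in shoots, and 2.42 ± 1.62 for DREB1A and -0.22 ± 1.28 for DREB1E in roots, given as a description. For this difference 5.42% of all probe sets were called in roots and 1.39% in shoots.

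**Figure D2:**
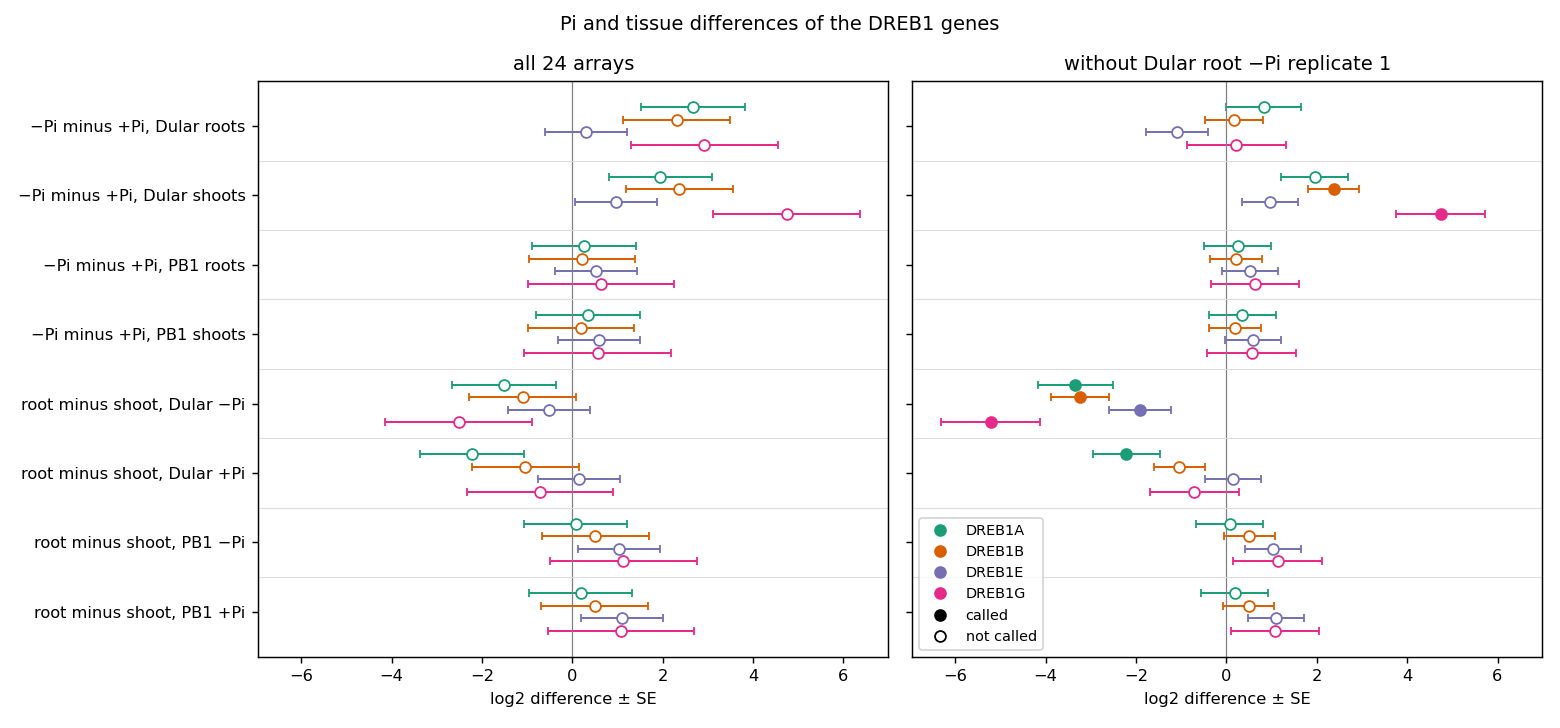
Log2 differences (x axis, point with SE) of −Pi minus +Pi and of root minus shoot for 4 DREB1 genes, on all 24 arrays (left) and without replicate 1 of the Dular root −Pi group (right), with called differences filled. No difference is called on all arrays, and without that array 2 Pi responses in Dular shoots and 5 tissue differences in Dular are called. That array was singled out by its high values of these genes.

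The 4 genes varied together within each genotype. Over the 12 Dular arrays Pearson's r was 0.944 between DREB1B and DREB1G, 0.881 between DREB1A and DREB1B and 0.631 between DREB1A and DREB1E, the lowest of the 6 pairs. Over the 12 PB1 arrays it was 0.95 between DREB1B and DREB1E and 0.476 between DREB1A and DREB1G, the lowest there. The points of each r share arrays, groups and normalization. The Dular values include the arrays that stood apart in these genes, and their weight in r was not tested. DREB1C had an r of -0.577 to -0.252 with the 4 genes over the Dular arrays, and of -0.599 to 0.599 over the PB1 arrays, where 2 of its probe sets had 0.569 and 0.599 with DREB1G.

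Among the 8128 single-gene probe sets whose group means spanned at least 2 log2 units, those most like DREB1B over the 24 arrays were LOC4325662 (r = 0.983), LOC4336904 (0.982), LOC4325693 or CML16, a calmodulin-like protein (0.98), LOC4345815 (0.978) and LOC4331834 or JAZ10 (0.976). Those most like DREB1G were LOC4335417 (0.979), LOC4336904 (0.976), LOC4345815 (0.97), CML16 (0.964) and LOC9266860 or CML18, another calmodulin-like protein (0.964). All of these values hold the step between the genotypes. Within the 12 Dular arrays the r of these genes was 0.85 to 0.946, and within the 12 PB1 arrays it was 0.39 to 0.919.

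The genes around the family were taken from 5 lists of 84 probe sets in all, and their differences between Dular and PB1 come from the same limma fit. The lists were chosen with earlier results known and the genes named by their calls in these comparisons, so their adjusted p-values are no independent evidence of a direction. Early stress factors are JAZ repressors of jasmonate signalling with WRKY, NAC and kinase genes. Of their 23 probe sets 17 were called lower in roots at −Pi, 16 in roots at +Pi, 14 in shoots at −Pi and 13 in shoots at +Pi, where 7.60%, 7.69%, 5.49% and 5.35% of all probe sets were. None was called higher, 6 to 10 did not pass, and over the 24 arrays the Dular and PB1 values overlapped for 13 of the 23. Their median differences were -3.04, -3.09, -2.31 and -1.92 in the same order, where the median of all probe sets was 0.00 to 0.05.

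The largest mean differences of that list were those of JAZ13, JAZ10 and JAZ9, with sizes of 7.75, 7.05 and 7.01 over the 4 comparisons, and the Dular and PB1 arrays of JAZ9 overlapped. JAZ13 (LOC4348531) stood at -0.31, -4.53 and -4.88 in Dular roots and 3.09, 3.07 and 3.13 in PB1 roots at −Pi, a difference of -6.33 ± 1.02 (limma adjusted p = 8.38e-05). In shoots at −Pi it stood at -8.50, -6.94 and -4.51 in Dular and 1.78, 2.09 and 1.62 in PB1, a difference of -8.48 ± 1.02 (adjusted p = 4.35e-06). JAZ10 differed by -7.65 ± 0.95 and JAZ9 by -7.98 ± 1.27 in roots at +Pi (adjusted p = 6.28e-06 and 8.67e-05). WRKY71, a WRKY factor of defence and stress, differed by -6.41 ± 0.63 in roots at −Pi and by -2.40 ± 0.63 in shoots at +Pi (adjusted p = 3.48e-07 and 0.00862).

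Both arrays that stood apart in the DREB1 genes also held list genes that stood apart. On replicate 1 of the Dular root −Pi group, 10 of the 84 list probe sets lay more than 2 log2 units above both other replicates, and 9 of the 10 were JAZ or WRKY71 probe sets. JAZ9 was above the mean of the other 2 by 5.49 and JAZ13 by 4.40. The other was TPP1, a trehalose-6-phosphate phosphatase, at 1.32 against -1.31 and -1.68. On replicate 3 of the Dular shoot −Pi group 5 did, among them JAZ9 by 4.40 and WRKY76 by 4.67. On replicate 1 of the Dular shoot +Pi group 5 list probe sets did as well, JAZ9, WRKY71 and WRKY24 among them. Of the DREB1 probe sets 0 lay that far above both. DREB1A was still highest on that array, at -3.29 against -5.19 and -7.11, and DREB1B, DREB1E and DREB1G were not. What these arrays share beyond the values was not tested.

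**Figure D3:**
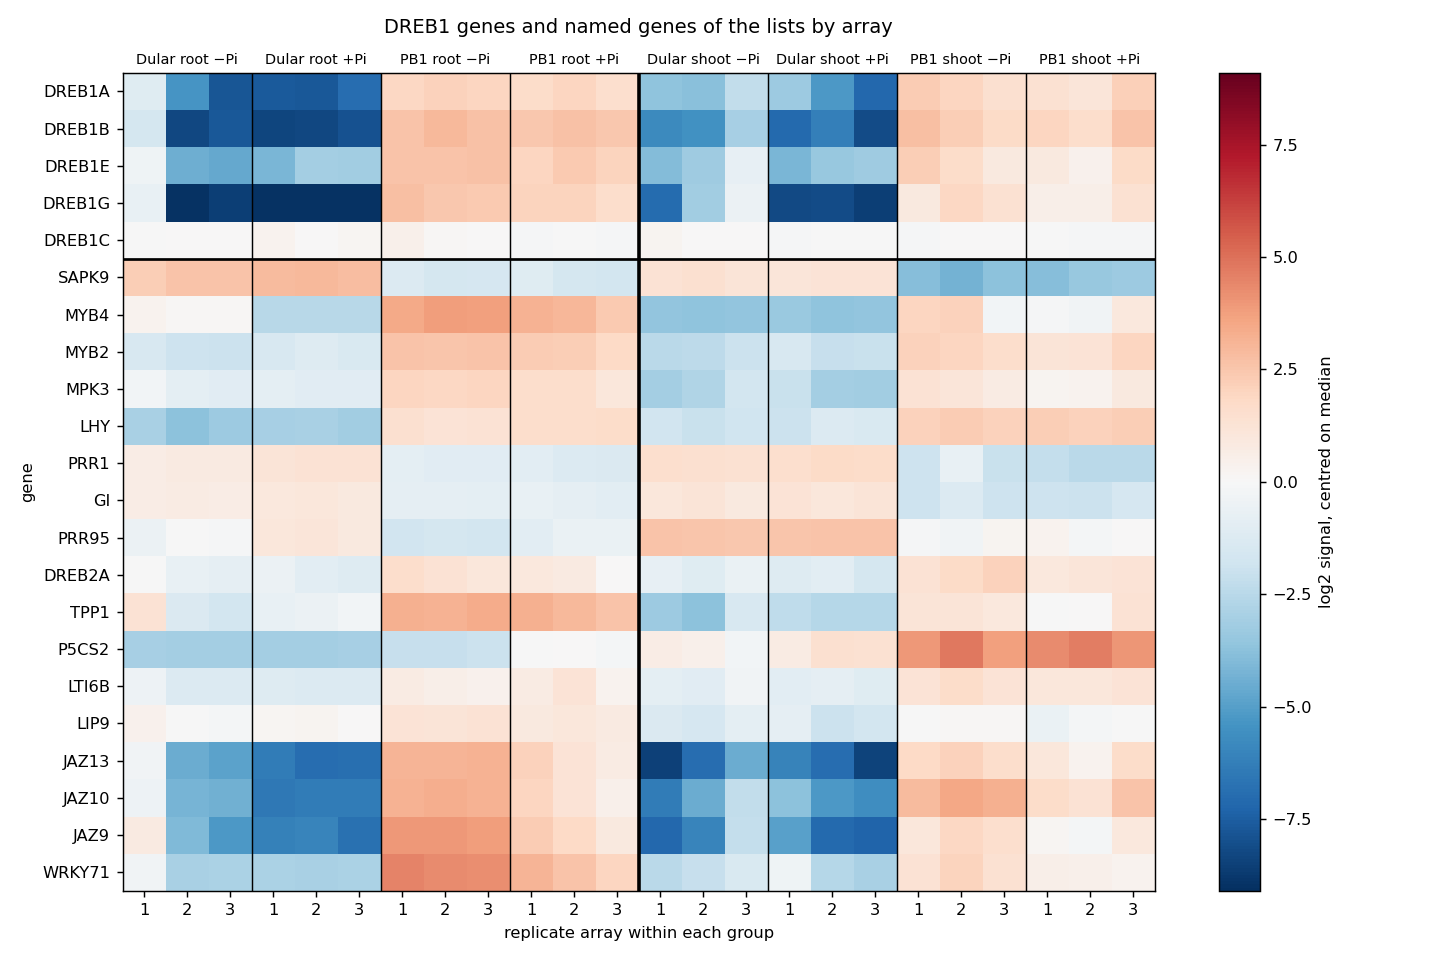
Centred log2 signal (colour) of the DREB1 genes, above the line, and of the named list genes, below it, on each replicate array (x axis) of the 8 groups. The Dular columns are mostly blue for DREB1A, DREB1B, DREB1E, DREB1G and the JAZ genes. They are near white on replicate 1 of the Dular root −Pi group, where DREB1G is at -0.69 and JAZ9 at 0.85. On replicate 3 of the Dular shoot −Pi group DREB1E and DREB1G are near white too, at -0.73 and -0.53.

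The clock list held calls in both directions. LHY (LOC4344703), a MYB factor of the morning loop, was lower in Dular, and GI, PRR1 and PRR95, which belong to the later phases of the day, were higher. LHY stood at -2.98, -3.72 and -3.33 in Dular roots and 1.43, 1.26 and 1.30 in PB1 roots at −Pi, a difference of -4.67 ± 0.16 (limma adjusted p = 3.25e-13). In shoots at −Pi it stood at -1.73, -2.05 and -1.81 in Dular and 2.08, 2.28 and 2.1 in PB1, a difference of -4.01 ± 0.16 (adjusted p = 3.65e-12). The differences in roots and shoots at +Pi were -4.64 and -3.72. PRR1 was higher in Dular by 1.76 to 4.01, GI by 1.54 to 2.92 and PRR95 by 1.47 to 2.59 over the 4 comparisons, all called. Replicates of LHY agreed within 1 log2 unit in each group, the Dular root −Pi group included. A second probe set of LHY was flat, with differences of -0.01 to 0.07.

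Of the 9 clock probe sets 3 were called higher and 2 lower in Dular in both root comparisons, and 4 higher and 1 lower in both shoot comparisons. The second one lower in roots was a probe set of PRR37, with -2.09 ± 0.34 at −Pi and -1.28 ± 0.34 at +Pi, against 0.44 and 0.58 in shoots, which were not called. The fourth one higher in shoots was a probe set of PRR73, at 1.37 and 1.04. Both were named after their values were seen. The other probe set of PRR37 and that of PRR73 were not called in any of these genotype comparisons. Of all probe sets 6.67% and 5.50% were called higher in roots at −Pi and +Pi, and 5.90% and 4.91% in shoots. With no hour of harvest in the labels, genotype and a time of day that differed between the genotypes cannot be told apart in these genes or in the DREB1 genes.

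Among known regulators of cold responses 6 of 25 probe sets were called lower and 2 higher in Dular in both root comparisons, 5 lower and 2 higher in shoots at −Pi, and 4 lower and 3 higher in shoots at +Pi. The median of the list was 0.20, 0.32, -0.15 and 0.02 in roots at −Pi and +Pi and in shoots at −Pi and +Pi, and the shares of all probe sets called lower and higher are those given for the early stress and clock lists. MYB2 (LOC4332651), a MYB factor of stress responses, was lower in Dular by -4.33 ± 0.22 in roots at −Pi and -4.13 ± 0.22 in shoots at −Pi (limma adjusted p = 7.23e-11 and 1.64e-10). MYB4 (LOC4336407), a MYB factor that raises cold tolerance when overexpressed, was lower in Dular, with differences of -3.47 to -5.37 ± 0.44. The kinase gene LOC4332475 (MPK3, also MAPK5) was lower in Dular, with differences of -2.38 to -3.56 ± 0.34. SAPK9 (LOC4352660), a kinase of the SnRK2 family, was higher by 3.90 to 5.28 ± 0.17. DREB2A (LOC4324418), the relative of DREB1 that answers to dehydration and salt, had differences of -1.82 and -1.49 in roots at −Pi and +Pi and of -2.54 and -2.34 in shoots (SE 0.27). The other 3 probe sets of the list of further DREB and AP2 factors were not called in any of these comparisons.

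Genes downstream of cold and dehydration signals were called lower more often than higher. Of 24 probe sets of dehydrins, late embryogenesis proteins and enzymes of trehalose and proline synthesis, 6 and 8 were called lower in Dular roots at −Pi and +Pi, and 5 and 5 in shoots, with 0 called higher in roots and 1 in each shoot comparison. That is against the 7.60%, 7.69%, 5.49% and 5.35% of all probe sets called lower, while 16 to 18 of the 24 were not called. TPP1 differed by -3.83 ± 0.63 in roots and -3.94 ± 0.63 in shoots at −Pi (limma adjusted p = 1.02e-04 and 9.65e-05). LTI6B, a small membrane protein induced by low temperature, differed by -1.56 to -2.12 ± 0.23 on 1 probe set and by -0.06 to -0.72 on the other, which was not called. LIP9, a dehydrin and a known target of DREB1A in rice, differed by -1.21, -0.79, -1.32 and -1.20 ± 0.23 in the order of roots at −Pi and +Pi and shoots at −Pi and +Pi, of which the second was under 2-fold. Of its other 2 probe sets 1 was called, in roots at +Pi alone. P5CS2, an enzyme of proline synthesis, differed by -1.01 to -3.85 ± 0.26 on 1 of 4 probe sets, and of the other 3 only 1 was called, in roots at +Pi. The median of the list was -0.70, -0.84, -0.29 and -0.43 in the same order.

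**Figure D4:**
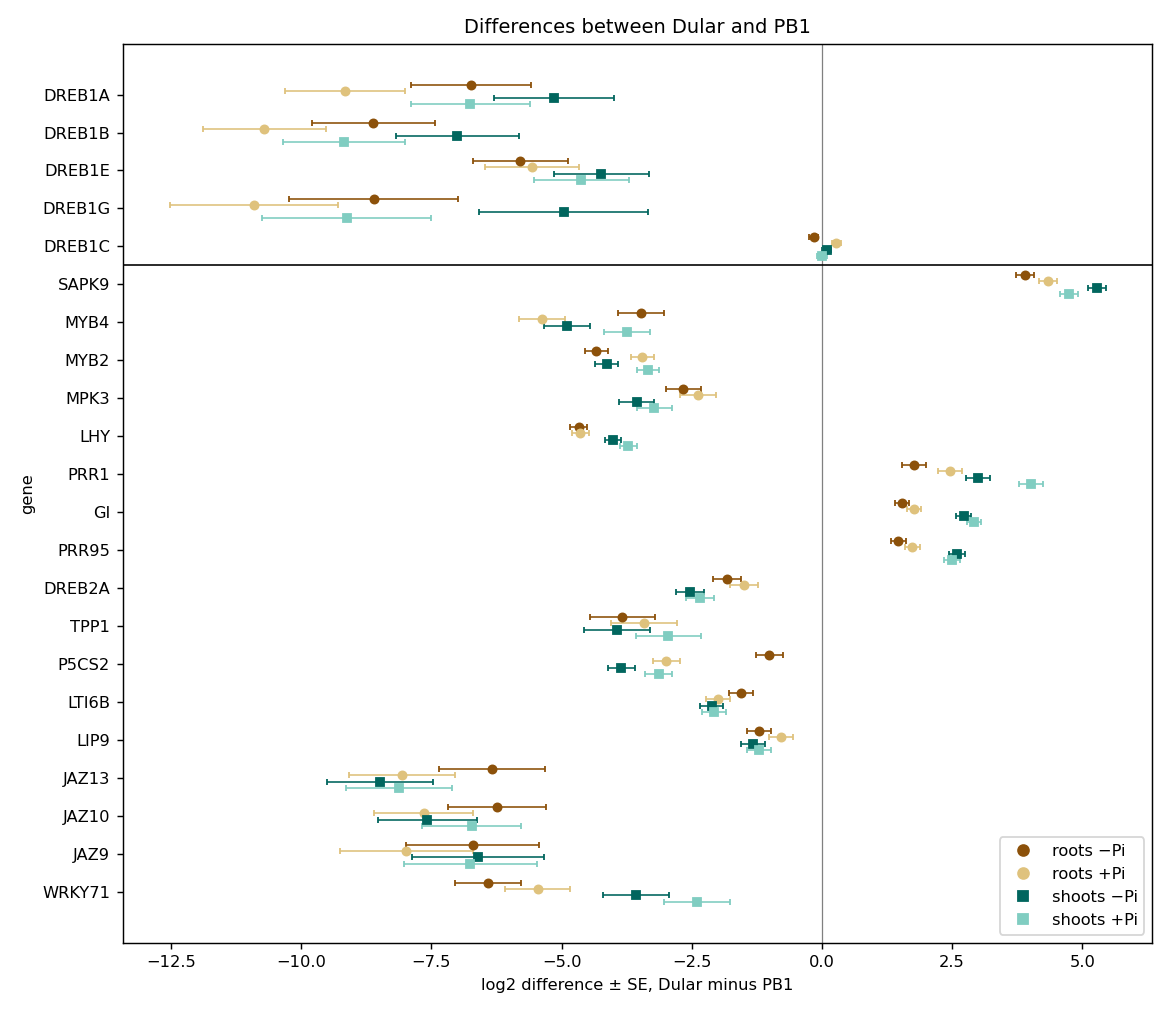
Log2 difference Dular minus PB1 (x axis, point with SE) of the DREB1 genes, above the line, and of the named list genes in roots (circles) and shoots (squares) at −Pi (dark) and +Pi (pale). SAPK9, PRR1, GI and PRR95 lie above 0 in all 4 comparisons, DREB1C lies near 0, and the other genes lie below 0.

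The lists held fewer Pi responses than genotype differences. Of the 84 probe sets 11 were called higher at −Pi and 1 lower in roots of Dular, and 1 lower in its shoots. In PB1 there were 5 higher and 1 lower in roots and 0 in shoots. Of all probe sets 4.12% and 3.44% were called higher and lower in Dular roots, and 2.55% and 2.25% in PB1 roots. In shoots these shares were 1.16% and 1.18% for Dular and 0.603% and 0.564% for PB1. In Dular roots JAZ10 differed by 3.38 ± 0.95 at −Pi (limma adjusted p = 0.0171), MYB4 by 2.69 ± 0.44 (1.85e-04), JAZ8 by 1.90 ± 0.39 (0.00178) and PRR95 by -1.23 ± 0.15. The early stress list had 6 of 23 probe sets called higher there with a median of 0.77, and 3 of 23 with a median of 0.25 without replicate 1 of the −Pi group. In PB1 roots JAZ8 and JAZ5 were the members of that list called higher, at 2.22 ± 0.39 and 3.53 ± 0.93 (adjusted p = 7.04e-04 and 0.0139). The median of that list was 0.75 in PB1 roots. Without replicate 1 of the Dular root −Pi group 6 of its 23 probe sets were called higher in PB1 roots, with the same median.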

How the data were processed

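The members and the gene lists were chosen with earlier results of these data known. Per the labels and methods, the authors scanned the arrays, summarised them with GC-RMA in GeneSpring and deposited log2 values centred on each probe set's median over the 24 arrays. Images and uncentred signals were not used here. Depth is not defined for arrays, and their number, 3 per group, limits the precision. Groups came from sample titles. Of 57381 probe sets 123 controls were left out. Probe sets were paired with genes through the platform annotation (22436 have 1 gene, 95 several) and the rice gene table of assembly ASM3414082v1.

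In R version 4.3.3, limma (version 3.58.1, lmFit and eBayes) estimated the 8 group means, with 16 residual and 0.789 prior degrees of freedom. The p-values of a contrast were adjusted by Benjamini-Hochberg over the 57258 probe sets, and a call needed a 2-fold change with an adjusted p no higher than 0.05. Tested on simulated data, the pipeline recovered most of the changes it was given. The most variable probe sets were given no change there, and the noise was equal in all groups. That recovery therefore does not cover genes as variable as DREB1A, DREB1B, DREB1E and DREB1G. Named are all members, up to 4 genes of each list by the number of Dular against PB1 comparisons called, the 5 most similar probe sets of 2 members, and list genes described by role. Alternatives were other scalings, variance models, array weights, narrower fits, a low-span filter, a replicate block and leaving out each array.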

Additional observations from a re-analysis of the deposited data

Results flagged for a closer look

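Among the DREB1 probe sets no difference of the Pi response between tissues was called. In the lists 5 were, 4 in Dular and 1 in PB1, and 1 probe set differed in its Pi response between the genotypes. The Pi response of 1 probe set of P5CS2, an enzyme of proline synthesis, was higher by 1.98 ± 0.37 (log2 ± SE) in Dular than in PB1 roots (limma adjusted p = 0.00184). Its mean was flat in Dular roots, at -3.05 at −Pi and -3.06 at +Pi, and lower at −Pi in PB1 roots, at -2.03 against -0.07. In PB1 the response of the same probe set was lower in roots than in shoots, with a difference of -1.81 ± 0.37 (adjusted p = 0.00799), while another P5CS2 probe set rose in PB1 roots by 1.54 ± 0.50 (adjusted p = 0.0469). In Dular the response was higher in roots than in shoots for MYB4 by 2.75 ± 0.62 (adjusted p = 0.00832), for 1 probe set of LIP9 by 2.77 ± 0.70 (0.0185) and for JAZ8 by 2.29 ± 0.56 (0.0143), and lower for PRR95, with a difference of -1.17 ± 0.21 (0.00127). In Dular shoots the means at −Pi and +Pi were -3.61 and -3.55 for MYB4 and -0.44 and -0.47 for LIP9. Whether such flat values are the lowest signal the method returns cannot be read from centred values.

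The spike-in control BioB, which no comparison uses, was 4.83 higher on the log2 scale on the Dular root arrays than on the PB1 root arrays. Its mean was -0.05 on the Dular root arrays and -4.88 on the PB1 root arrays. The other spike-in controls BioC, BioD and Cre lay between -0.54 and 0.17 on these arrays, and no label names a batch.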

How the results depend on the processing

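The lower signals of DREB1A, DREB1B, DREB1E and DREB1G in Dular kept their direction in all 528 values that the alternatives gave. The difference Dular minus PB1 ranged over them from -9.42 to -4.87 for DREB1A, -10.85 to -6.48 for DREB1B, -7.19 to -3.57 for DREB1E and -11.36 to -2.94 for DREB1G over the 4 comparisons. Of the 528 values 6 moved by more than the larger SD of the 2 groups compared, all at +Pi under quantile normalization. At −Pi that SD was wide, for DREB1G 4.68 in roots and 3.27 in shoots of Dular. Smaller shifts there could not count as moved. The number of the 7 probe sets called lower in Dular, 4 in each comparison, was 2 in roots and 2 in shoots at −Pi in a fit to the compared groups, 1 in shoots at −Pi with array weights, whose estimation stopped before convergence, and 3 to 4 in shoots at −Pi when an array was left out. The counts of Pi and tissue calls, 0 throughout, changed more often. With no fold threshold 2 were called in PB1 roots between Pi levels, and 1, 2 and 1 between tissues in Dular at +Pi, PB1 at −Pi and PB1 at +Pi, all of them DREB1C. Array weights called 1 in Dular roots and 3 in Dular shoots between Pi levels and 4 between tissues in Dular at −Pi. Quantile normalization called 1, DREB1G, in Dular shoots. A fit to the arrays of 1 genotype called 1, DREB1G, between tissues in PB1 at each Pi level, and a fit to the compared groups 1 at −Pi. Leaving out an array gave 0 to 1 Pi calls in Dular roots, 0 to 2 in Dular shoots, 0 to 4 tissue calls in Dular at −Pi and 0 to 1 at +Pi. The 2 and the 4 came without Dular root −Pi replicate 1. Without Dular root −Pi replicate 3 DREB1A was called between Pi levels in Dular roots (4.18, adjusted p = 0.00793, limma) and between tissues in Dular at +Pi (-2.22, adjusted p = 0.0468), and that tissue difference was -3.18 (adjusted p = 0.043) without Dular shoot +Pi replicate 3. Without Dular shoot −Pi replicate 1 DREB1G was called in Dular shoots (6.47, adjusted p = 0.023).

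Some Pi and tissue differences reversed, none of them called. Quantile normalization gave -0.01 and -0.09 for DREB1A and DREB1B between Pi levels in PB1 roots, and between tissues -0.34 and -0.06 for them in PB1 at −Pi, 0.38 for DREB1B and 0.28 for DREB1E in Dular at −Pi, and 1.32 for DREB1B and 2.51 for DREB1G in Dular at +Pi. The cause was not tested. Array weights gave -0.19 for DREB1A between tissues in PB1 at −Pi and -0.93 for DREB1E between Pi levels in Dular roots. Leaving out an array gave a range of -3.35 to 0.00 for DREB1A, -3.24 to 0.10 for DREB1B and -1.92 to 0.44 for DREB1E between tissues in Dular at −Pi, and -0.11 to 0.50 for DREB1E at +Pi. In PB1 the tissue difference of DREB1A had a range of -0.14 to 0.26 at −Pi and -0.05 to 0.49 at +Pi, and the Pi response of DREB1B in shoots one of -0.05 to 0.46. The Pi response of DREB1E in Dular roots had a range of -1.10 to 1.06.

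Of the 84 list probe sets 1 was called for Pi in Dular shoots, against 2 with quantile normalization, 2 with the replicate block and 0 to 2 when an array was left out, and 0 in PB1 shoots, against 0 to 2. Same-numbered arrays of different groups had a mean correlation of deviations of 0.0203 (-0.179 to 0.4). Of the 24 arrays 11 had their highest mean correlation with arrays of that same number. On PB1 +Pi replicate 2 a probe set of the list gene RAB21 lay 6.17 above the mean of the other 2 in roots and 4.83 in shoots. The Dular −Pi arrays that stood apart were replicate 1 in roots and replicate 3 in shoots. Whether same-numbered roots and shoots came from the same seedlings was not tested. The block changed no call of a DREB1 probe set, with 0 called for Pi or tissue and 4 for genotype in each comparison.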
